A study of Mus musculus with 6 samples.

Results

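The genes described here are the cytosolic translation factors and tRNA synthetases of mouse peripheral blood neutrophils. The rule used gene names and no measured value, and took protein-coding genes of the deposited table whose symbol starts with Eif or Eef and a digit, or is a single letter followed by ars. *Eif2ak2*, the interferon-induced kinase PKR, was left out. The rule gave 84 of the 29097 genes listed, of which 55 carried Eif names, 13 Eef names and 16 synthetase names, and 76 of the 84 reached a mean FPKM of 1 and were tested.

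The series compared circulating neutrophils of mice with periodontitis with those of healthy mice by Smart-seq2, an RNA-seq protocol for small amounts of RNA that copies full-length mRNA and amplifies it by PCR without molecular identifiers. The Lig group was made of male C57BL/6 mice, 8 weeks old, with silk ligatures around the second molars of both jaws for 14 d, a model of ligature-induced periodontitis. The Ctrl group was made of male C57BL/6 mice of the same age without ligatures, and no sham procedure was named for these libraries. Cells were sorted as CD45+CD11b+Ly6G+, and each group had 3 libraries, each from the pooled neutrophils of 5 mice, so the spread between libraries is that between pools and not between animals.

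Translation factors are the proteins that bring ribosome, mRNA and initiator tRNA together, move the ribosome along the coding sequence and recycle their own GTP, and tRNA synthetases attach each amino acid to its tRNA. Initiation is held back in a pair of well-known ways, by proteins that cover the cap-binding factor eIF4E and by phosphorylation of the alpha subunit of eIF2, which blocks its exchange factor eIF2B and opens the integrated stress response. Circulating neutrophils are short-lived, do not divide, and carry fewer ribosomes and less mRNA than their bone marrow precursors.

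Total counts lay between 52186555 and 57262379 per library. Markers of other blood cells differed between the groups. All 21 markers of mature neutrophils, of which the most abundant were *S100a9* (log2 fold change 2.03) and *S100a8* (1.95), were higher in Lig, where their counts made up 6.52 to 6.90% of a library against 2.22 to 2.44% in Ctrl. All 10 erythroid markers, of which the most abundant were *Hba-a1* (-2.80) and *Hba-a2* (-2.89), were lower and fell from between 14.8 and 15.2% of a Ctrl library to between 1.57 and 1.63% of a Lig library. The 12 B cell markers, among them *Cd74* (-2.27) and *Ighm* (-2.15), took 2.07 to 2.24% in Ctrl and 0.339 to 0.347% in Lig, and all 13 T cell markers, among them *Trbc2* (-2.5) and *Lck* (-1.32), were lower as well, at 0.0973 to 0.103% in Ctrl and 0.0165 to 0.0195% in Lig. All 8 platelet markers (*Ppbp* 1.23, *Pf4* 1.21) were higher in Lig under TMM, with 0.116 to 0.139% in Ctrl and 0.236 to 0.286% in Lig. So were 9 of 10 monocyte markers (*Cd68* 1.13, *Ly6c2* 0.79), with 0.0908 to 0.0996% in Ctrl and 0.151 to 0.161% in Lig. The named platelet and monocyte genes turned negative under the scaling on mature neutrophil genes described with the members. Of 8 NK cell markers 3 were called higher, though neither *Nkg7* (-0.15) nor *Gzma* (0.20). Of the 3, *Klre1* kept its call in 1 and *Ncr1* in 2 of the 6 fits that left out 1 library. The summed NK share of counts was lower in every Lig library (0.0575 to 0.0604%) than in any Ctrl library (0.0638 to 0.0731%). No marker was at 0 reads in every library. These shares move with each result that follows, and their part in the results was not tested. In bulk RNA, fewer cells of a type and less RNA per cell cannot be told apart.

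Of the 76 tested members, 35 were lower and 4 were higher in Lig (edgeR's quasi-likelihood test, adjusted p under 0.05, TMM normalization). Over all 10440 genes tested, 27.2% were lower, 26.5% were higher and 53.6% passed in either direction. The median log2 fold change of the members was -0.56, against -0.09 for all genes tested. The 4 higher members were *Eif4ebp1*, *Eef2k*, *Eif2s3y* and *Eif1*, and under a scaling on mature neutrophil genes 3 of them were called lower and *Eif4ebp1* was level at -0.05 (edgeR adjusted p = 0.659). In 42 members all Lig libraries lay below all Ctrl libraries, and in 8 all lay above, where 33.1% of all tested genes lay below, 30.3% above and 63.4% apart in either direction. All 4 higher and 24 of the 35 lower members were called in all 6 fits that left out 1 library.

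How the libraries were put on 1 scale set the balance of directions. TMM placed the median of all genes at -0.09, and 49.4% of all calls were higher. Scaling to library totals moved that median by -0.32, gave 1 higher and 50 lower members, and left 31.6% of all calls higher. Totals without the haemoglobin genes moved it by -0.53, with 1 higher and 62 lower members and 22.2% of calls higher. Scaling on the summed mature neutrophil markers, whose own rise it sets to zero, moved it by -1.84, with 0 higher and 75 lower members and 0.559% of calls higher. limma on log2(FPKM + 1) gave 1 and 50 members, and 31.7% of calls were higher, and with a pseudocount of 0.1 it gave 1 and 48 members and 31.4%. The distance of the members' median from the median of all genes was -0.46 under TMM and lay between -0.47 and -0.45 under those 3 scalings and median-of-ratios factors. A scaling shifts every log2 value by about the same amount, so this distance could hardly change. The 35 lower members stayed lower and called under the 3 scalings. Those moved all genes down, so a lower call could hardly be lost under them. Median-of-ratios factors moved the median by 0.04, and 33 of the 35 kept their call.

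**Figure D1:**
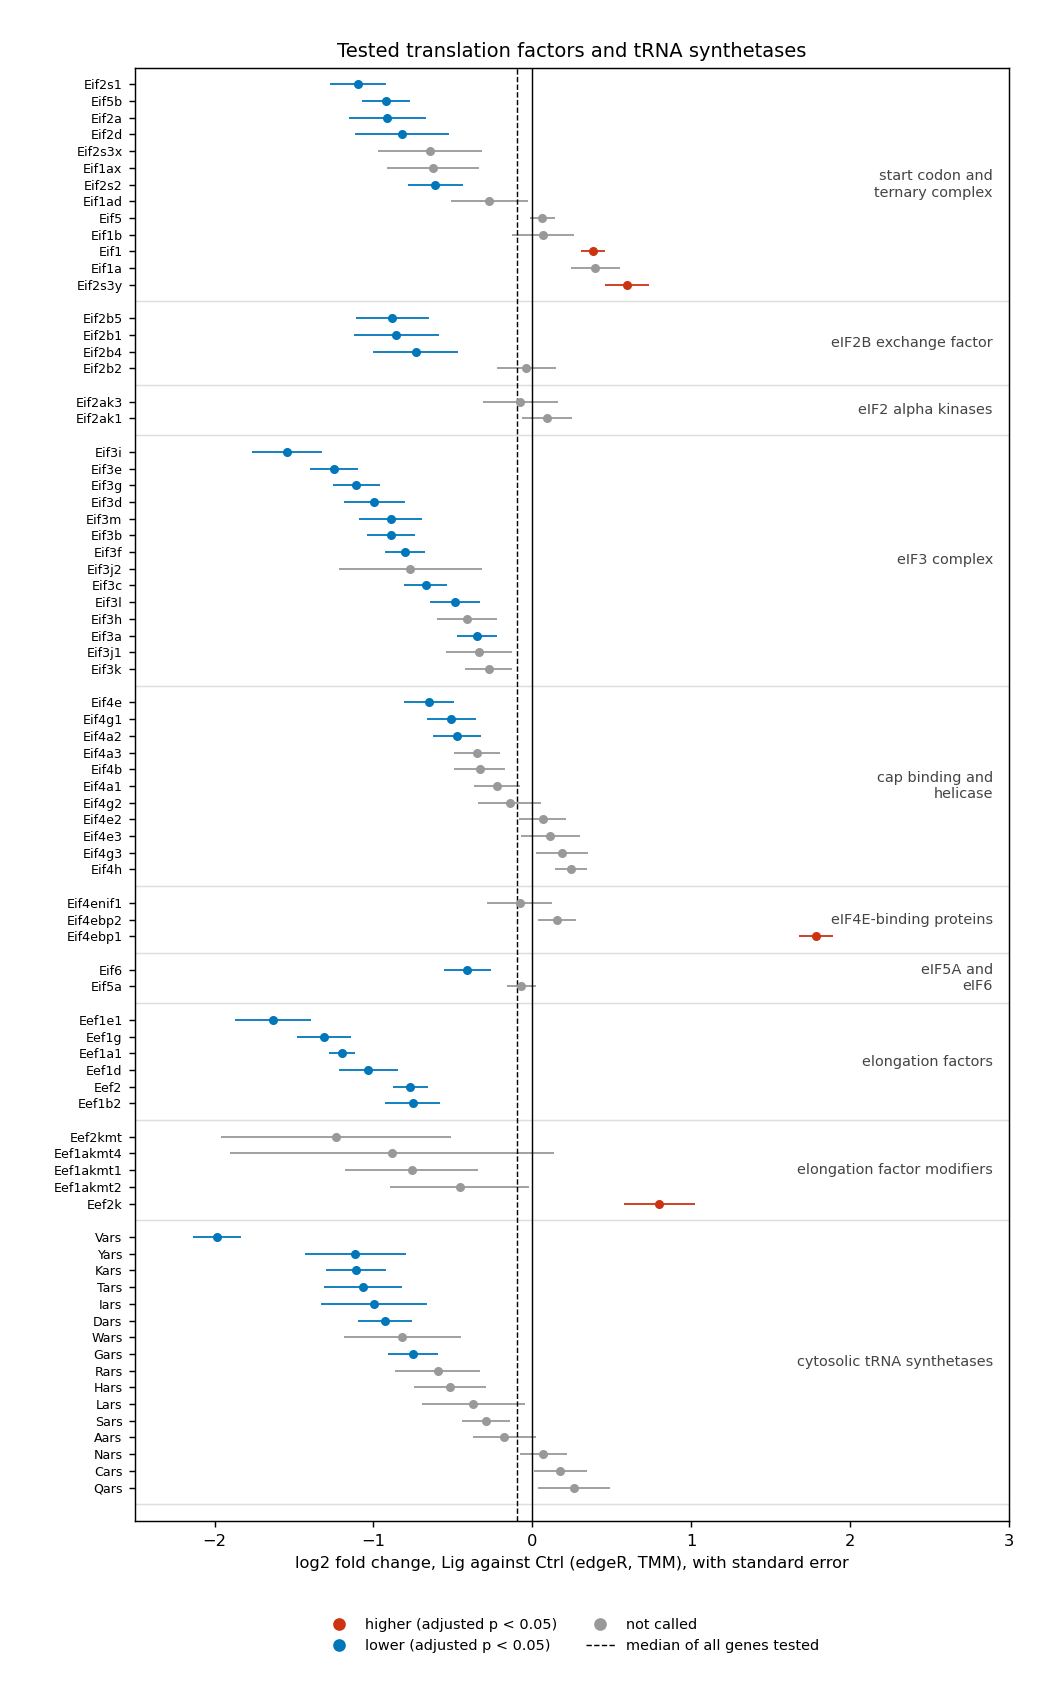
Log2 fold change (Lig against Ctrl, horizontal axis) with its standard error for each of the 76 tested members, grouped by role; blue points were lower and red points higher at an adjusted p under 0.05, grey points were not called, and the dashed line is the median of all genes tested (-0.09). All 6 genes grouped as elongation factors, *Eef1e1* among them by name, and all 14 eIF3 subunit genes lie left of 0. *Eif4ebp1* stands alone at 1.78 on the right, although under a scaling on mature neutrophil genes it lies at -0.05.

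The members differed widely in abundance. By mean FPKM, a level per length, the order began with *Eif1* at 453.6, *Eef1a1* at 333.4, *Eif5a* at 184.4, *Eef2* at 84.1, *Eif5* at 74.9 and *Eif4ebp1* at 70.3, and no other member exceeded 35.5. In Ctrl the most abundant was *Eef1a1*, with a mean of 493 FPKM against 442 for *Eif1*. In Lig the order of the pair was the other way round, with 174 FPKM for *Eef1a1* and 465 for *Eif1*. Not tested were *Eif2ak4*, *Eif2b3*, *Eif4ebp3*, *Eif5a2*, *Eef1akmt3*, *Eef1aknmt*, *Eif4a3l1* and *Eif4a3l2*, all below a mean of 1 FPKM.

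The first role is start codon selection and the ternary complex that brings initiator tRNA to the small ribosomal subunit. Of 13 tested members 2 were higher and 5 lower, or 15.4% and 38.5% against 26.5% and 27.2% of all genes tested. The median was -0.61. Without Ctrl library 2 the 5 became 3, and without Lig library 1 the median was -0.35. The eIF2 complex itself has 3 subunits, of which the third is made from an X-linked or a Y-linked gene. *Eif2s1* encodes the alpha subunit, the one that stress kinases phosphorylate. Its CPM (reads scaled to library size with TMM factors) was 44.8, 50.6 and 37.8 in the Ctrl libraries and 19, 20.6 and 22.6 in the Lig libraries. The groups did not overlap, and the fold was 2.14 lower in Lig (log2 -1.10 ± 0.18 SE, edgeR adjusted p = 4.52e-04). *Eif2s2*, the beta subunit, had a log2 fold change of -0.61 ± 0.17 (edgeR adjusted p = 0.0126, and 0.0536 without Ctrl library 2).

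The gamma subunit genes moved apart. *Eif2s3y* on the Y chromosome had a CPM of 75.0, 63.1 and 62.1 in Ctrl and of 91.0, 115 and 96.1 in Lig. All Lig libraries were above all Ctrl libraries (log2 0.59 ± 0.14, edgeR adjusted p = 0.00454), but not past the threshold with library totals (0.27, adjusted p = 0.119), and scaling on mature neutrophil genes reversed the direction to -1.25. *Eif2s3x*, its X-linked partner, was at 26.1, 16.9 and 26.5 CPM in Ctrl and at 8.10, 20.2 and 16.2 in Lig, and was not called (-0.64 ± 0.33, edgeR adjusted p = 0.120). *Xist*, the RNA of the inactive X chromosome, stayed at or below 0.0248 FPKM in every library of these male mice.

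Genes for scanning and for subunit joining also differed in direction under TMM. *Eif1*, which keeps the scanning ribosome from stopping at a wrong codon, was at 901, 907 and 889 CPM in Ctrl and at 1219, 1124 and 1171 in Lig. All Lig libraries were above all Ctrl libraries and the rise was the smallest of the 4 (log2 0.38 ± 0.08, edgeR adjusted p = 0.00176), but it was 0.06 with library totals (adjusted p = 0.483) and turned to -0.15 with totals without haemoglobin genes and to -1.45 with scaling on mature neutrophil genes. *Eif5b*, the GTPase that joins the ribosomal subunits, was at 68.6, 88.9 and 82.6 CPM in Ctrl against 44.5, 45.6 and 36.8 in Lig, so that the groups stood apart at -0.92 ± 0.15 (edgeR adjusted p = 4.85e-04). *Eif1ax*, an X-linked gene for eIF1A, gave -0.62 ± 0.29 and its autosomal copy *Eif1a* gave 0.40 ± 0.16, neither called (edgeR adjusted p = 0.0901 and 0.0519). *Eif1b*, a close relative of *Eif1*, was at 0.07 ± 0.20 (edgeR adjusted p = 0.784). Reads of *Eif1* and *Eef1a1*, which have processed pseudogenes, are uncertain to the extent that near-identical copies shared them.

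The eIF2B exchange factor reloads eIF2 with GTP and is the target of phosphorylated eIF2. Of its 4 tested subunits 3 were lower, or 75.0% against 27.2% of all genes tested, with a median of -0.79. *Eif2b5*, the catalytic epsilon subunit, was at 25.7, 32.3 and 26.2 CPM in Ctrl and at 18.6, 15.8 and 11.2 in Lig (log2 -0.88 ± 0.23, edgeR adjusted p = 0.0089). *Eif2b1* (alpha) and *Eif2b4* (delta) gave -0.86 ± 0.27 and -0.73 ± 0.27 (edgeR adjusted p = 0.0214 and 0.0399). *Eif2b2* (beta) was at 40.0, 35.8 and 29.9 CPM in Ctrl and 38.5, 27.9 and 36.5 in Lig, so its groups overlapped (-0.04 ± 0.19, edgeR adjusted p = 0.873). Without Ctrl library 1, Ctrl library 2 or Lig library 2 in turn, *Eif2b5* was the 1 subunit left as lower, the adjusted p of *Eif2b1* was 0.0657, 0.0858 and 0.0672, and *Eif2b4*, whose reads can also come from the overlapping *Snx17*, kept its call only without Lig library 1, with an adjusted p of 0.0740 to 0.125 in the other 5 fits.

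The 2 tested kinases upstream of eIF2B were level under TMM, while *Eif2ak4* was not tested and *Eif2ak2* lay outside the rule. *Eif2ak1*, the haem-regulated kinase HRI, was at 66.5, 45.7 and 57.7 CPM in Ctrl and 65.3, 59.4 and 56.3 in Lig, with a log2 fold change of 0.09 ± 0.16 (edgeR adjusted p = 0.644). *Eif2ak3*, the endoplasmic reticulum kinase PERK, gave -0.07 ± 0.24 (edgeR adjusted p = 0.806), and its Ctrl libraries ranged from 41.5 to 80.3 CPM around Lig libraries of 47.0 to 65.8. Neither kinase differed beyond the spread of its libraries under TMM, and reads of *Eif2ak1* can overlap those of *Aimp2*. With totals without haemoglobin genes 1 of them was lower. Under scaling on mature neutrophil genes 2 were lower, with a median of -1.84.

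eIF3 is the largest initiation factor, a scaffold of many subunits that holds the small ribosomal subunit and the cap-binding complex together. All 14 of its tested genes had negative log2 fold changes, with a median of -0.78. Of these, 10 were called lower and none higher, or 71.4% lower against 27.2% of all genes tested. Under other scalings 9 to 14 of them were lower, and 8 to 10 when a single library was left out. *Eif3i* (chr4:129591960-129600648, - strand) stood at 29.1, 27.5 and 30.2 CPM in Ctrl and at 7.70, 10.3 and 11.7 in Lig, a 2.92-fold difference (log2 -1.55 ± 0.22, edgeR adjusted p = 2.03e-04). *Eif3e* stood at 76.0, 81.9 and 81.7 CPM in Ctrl and at 36.2, 37.2 and 27.5 in Lig (log2 -1.25 ± 0.15, edgeR adjusted p = 6.25e-05). In both genes the highest Lig library lay far below the lowest Ctrl library.

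The subunits did not move by 1 common amount. *Eif3g*, an RNA-binding subunit, and *Eif3d*, which can bind the cap of some mRNAs, followed *Eif3e* at -1.11 ± 0.15 and -0.99 ± 0.19. The most abundant per length, *Eif3h*, with a mean of 35.5 FPKM, was at 52.2, 84.3 and 70.9 CPM in Ctrl and at 42.9, 55.6 and 57.6 in Lig, and was not called (-0.41 ± 0.19, edgeR adjusted p = 0.0911). *Eif3j1* and *Eif3j2*, near-identical copies of the loosely bound j subunit, gave -0.34 ± 0.21 and -0.77 ± 0.45 (edgeR adjusted p = 0.190 and 0.175), values that are uncertain because reads can be split between the copies.

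**Figure D2:**
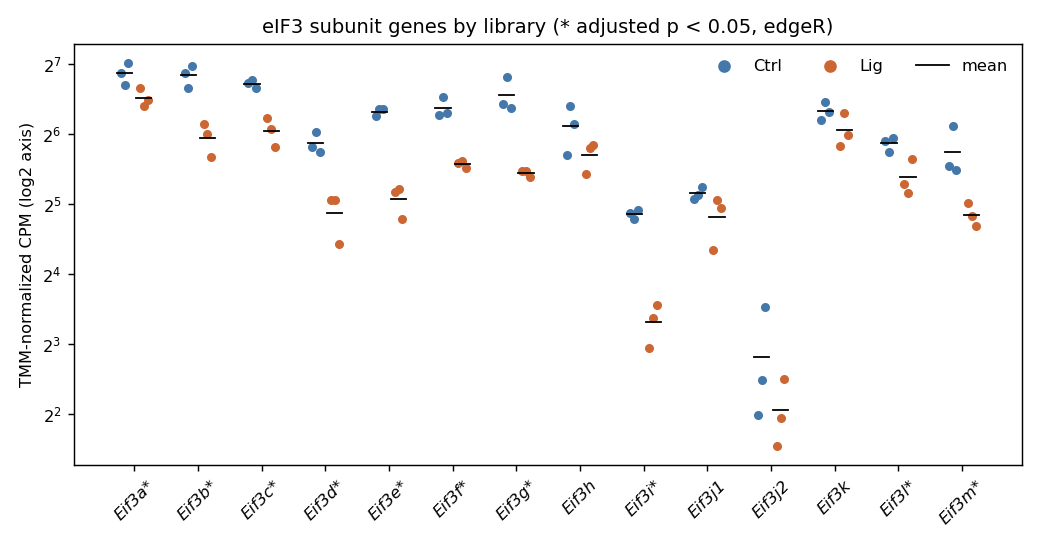
TMM-normalized CPM (vertical axis, log2 scale) of the 14 eIF3 subunit genes in each Ctrl and Lig library, with the group mean as a line and an asterisk where the adjusted p was under 0.05. The gap between groups is widest for *Eif3i* (28.9 against 9.91 CPM on average) and narrowest for *Eif3k* (80.3 against 66.4 CPM).

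The cap-binding complex is built from eIF4E, which holds the cap, the scaffold eIF4G and the helicase eIF4A. The role grouped its genes with relatives and helpers that are not part of it. Of the 11 tested genes of this role 3 were lower, or 27.3% against 27.2% of all genes tested. None was higher, and the median was -0.22. Without Ctrl library 3 only 1 was lower, and without Ctrl library 2, 1 was higher. *Eif4e* was at 58.4, 70.6 and 62.0 CPM in Ctrl and at 39.1, 47.8 and 35.0 in Lig (log2 -0.65 ± 0.16, edgeR adjusted p = 0.00572). Its relatives *Eif4e2*, a cap-binding repressor, and *Eif4e3* were at 0.06 ± 0.15 and 0.11 ± 0.19 with overlapping groups (edgeR adjusted p = 0.731 and 0.626). Among the scaffolds, *Eif4g1* was lower (-0.51 ± 0.15, edgeR adjusted p = 0.0166), while *Eif4g3* gave 0.19 ± 0.16 and *Eif4g2*, which binds no eIF4E, gave -0.14 ± 0.20 (edgeR adjusted p = 0.359 and 0.564).

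The helicase genes stayed closer together. *Eif4a2* was lower at -0.48 ± 0.15 (edgeR adjusted p = 0.0213), *Eif4a3*, the helicase of the exon junction complex, gave -0.35 ± 0.14 (edgeR adjusted p = 0.0603), and *Eif4a1* gave -0.22 ± 0.14 (edgeR adjusted p = 0.209). The pseudogene *Eif4a-ps4* was listed at 16.3 to 26.3 FPKM, against a mean of 21.3 FPKM for *Eif4a1*, and whether reads were shared between the pair was not tested. *Eif4h*, a helper of the helicase and with 28.3 FPKM the most abundant of the group, was at 154, 154 and 160 CPM in Ctrl and 191, 189 and 174 in Lig but missed the threshold (0.25 ± 0.10, edgeR adjusted p = 0.0617). Of the called genes, *Eif4g1* lost its call without Ctrl library 3 or Lig library 1 (adjusted p = 0.0611 and 0.0581), and *Eif4a2* without Ctrl library 1, Ctrl library 3, Lig library 2 or Lig library 3 (adjusted p = 0.0882, 0.0593, 0.0778 and 0.0515).

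The largest rise among all members was that of *Eif4ebp1* (chr8:27260329-27276674, + strand, GRCm38), which encodes 4E-BP1, the repressor that covers eIF4E until mTOR phosphorylates it. Its CPM was 72.0, 83.1 and 82.2 in Ctrl and 274, 274 and 269 in Lig. The Lig libraries agreed to within a few CPM and all lay above every Ctrl library, a 3.45-fold difference (log2 1.78 ± 0.11, edgeR adjusted p = 5.90e-07) that was reduced to -0.05 by scaling on mature neutrophil genes. Per length, *Eif4ebp1* rose from a mean of 37.1 to 103 FPKM. *Eif4ebp2*, which encodes a second repressor of the same kind, was at 63.6, 60.3 and 59.2 CPM in Ctrl and at 64.4, 70.7 and 68.7 in Lig and was not called (0.15 ± 0.12, edgeR adjusted p = 0.293), and *Eif4enif1*, which encodes the carrier 4E-T, gave -0.08 ± 0.20 (edgeR adjusted p = 0.757).

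A ratio of genes within a library does not depend on how libraries are scaled, but it can still move with the mix of cells, which was not tested. The FPKM ratio of *Eif4ebp1* to *Eif4e*, chosen after the values were seen and so given with no test, was 3.38, 3.23 and 3.63 in the Ctrl libraries and 19.3, 15.7 and 21.1 in the Lig libraries. Each Lig library thus listed several times more repressor mRNA per mRNA of the cap-binding factor than any Ctrl library. The ratio of *Vars* to *Eef1g*, chosen in the same way, overlapped between the groups. It was 1.08, 0.57 and 0.83 in Ctrl and 0.52, 0.61 and 0.41 in Lig.

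**Figure D3:**
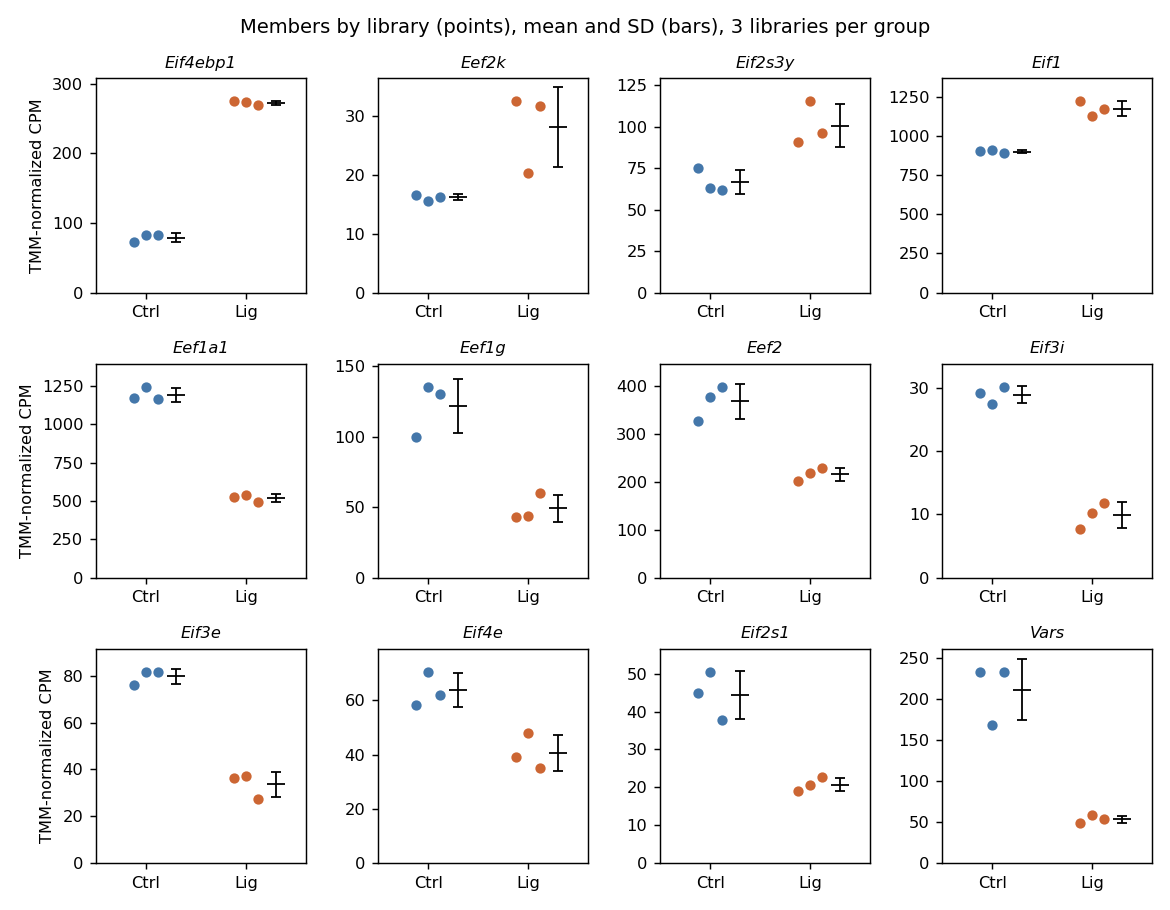
TMM-normalized CPM (vertical axes, each from 0) of 12 members in the 3 Ctrl (blue) and 3 Lig (orange) libraries, with mean and SD as black bars. The groups do not overlap in any panel, and Lig lies above Ctrl in the top row (*Eif4ebp1*, *Eef2k*, *Eif2s3y* and *Eif1*) and below it in the rest; under a scaling on mature neutrophil genes *Eef2k*, *Eif2s3y* and *Eif1* are lower in Lig as well and *Eif4ebp1* is level at -0.05.

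Of the tested genes in the eIF5A and eIF6 role, *Eif5a*, which helps the ribosome through stalling stretches, was level at 477, 519 and 446 CPM in Ctrl and 474, 456 and 444 in Lig (log2 -0.07 ± 0.09, edgeR adjusted p = 0.546). *Eif6*, which keeps free large subunits from joining, was lower at -0.41 ± 0.15 (edgeR adjusted p = 0.0400), but not without Ctrl library 2, Ctrl library 3, Lig library 1 or Lig library 2 (adjusted p = 0.138, 0.0843, 0.132 and 0.0711).

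Among the roles, the genes grouped as elongation factors fell most. The grouping followed gene names, so it took in *Eef1e1* and left out *Eif5a*, which was level. All 6 were lower under each scaling, under DESeq2 and limma and without any 1 library, and their median was -1.11. Over all genes tested 27.2% were lower under TMM. *Eef1a1* (chr9:78478449-78489151, - strand), which delivers aminoacyl-tRNA to the ribosome, was at 1170, 1245 and 1162 CPM in Ctrl and at 529, 540 and 491 in Lig. The groups stood far apart, with 2.29-fold less in Lig (log2 -1.20 ± 0.08, edgeR adjusted p = 1.35e-06). *Eef2*, which moves the ribosome by a codon, was at 327, 378 and 399 CPM in Ctrl and 201, 218 and 228 in Lig (log2 -0.77 ± 0.11, edgeR adjusted p = 1.96e-04).

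The exchange factor that reloads eEF1A with GTP is a complex of 3 subunits, and the genes of all of them were lower. *Eef1g* (gamma) was at 99.9, 136 and 130 CPM in Ctrl and at 43.4, 43.9 and 60.3 in Lig (log2 -1.31 ± 0.17, edgeR adjusted p = 1.09e-04). *Eef1d* (delta) and *Eef1b2* (beta) gave -1.03 ± 0.19 and -0.75 ± 0.17 (edgeR adjusted p = 9.75e-04 and 0.00433). *Eef1e1*, whose product is a scaffold protein of the multisynthetase complex rather than an elongation factor, was lowest of the group at 17.5, 17.4 and 19 CPM in Ctrl and 5.89, 6.20 and 5.25 in Lig (log2 -1.64 ± 0.24, edgeR adjusted p = 2.39e-04). In every one of these genes the groups stood apart, and reads of *Eef1d* can overlap those of *Naprt*.

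Among enzymes that modify elongation factors, 1 of 5 tested genes was higher and none lower, against 26.5% and 27.2% of all genes tested. The other 4 had negative values, and the median was -0.76. *Eef2k* encodes the calcium-regulated kinase that phosphorylates eEF2 and slows elongation. Its CPM was 16.6, 15.6 and 16.2 in Ctrl and 32.4, 20.3 and 31.6 in Lig. All Lig libraries were above Ctrl, with Lig library 2 nearest to it (log2 0.80 ± 0.22, edgeR adjusted p = 0.0117), but library totals ended the call (0.48, adjusted p = 0.0901) and scaling on mature neutrophil genes turned the direction to -1.03. The FPKM ratio of *Eef2k* to its substrate *Eef2*, which no scaling touches and which was likewise chosen after the values were seen, was 0.0227, 0.0185 and 0.0182 in Ctrl and 0.0721, 0.0416 and 0.0619 in Lig. The methyltransferase genes *Eef2kmt* (-1.24 ± 0.72), *Eef1akmt1* (-0.76 ± 0.42), *Eef1akmt2* (-0.46 ± 0.44) and *Eef1akmt4* (-0.89 ± 1.02) were not called (edgeR adjusted p = 0.171, 0.147, 0.397 and 0.483).

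Of the 16 tRNA synthetase genes, 7 were lower and none was higher, with a median of -0.67. The lower share was 43.75%, against 27.2% of all genes tested. *Vars* (chr17:35000987-35016322, + strand), the valyl-tRNA synthetase that associates with the eEF1 exchange complex, had the largest fall of all members. Its CPM was 234, 168 and 234 in Ctrl and 49.1, 58.0 and 53.2 in Lig, a 3.96-fold difference (log2 -1.99 ± 0.15, edgeR adjusted p = 2.39e-06). *Vars* was also the most abundant synthetase per length over all libraries, at 39.0 FPKM in Ctrl but 7.93 in Lig. *Yars*, the tyrosyl enzyme, was at 30.2, 15.7 and 23.8 CPM in Ctrl and 11.1, 14.1 and 6.99 in Lig (-1.12 ± 0.32, edgeR adjusted p = 0.0133), with an adjusted p of 0.0593 without Ctrl library 1.

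The other called synthetases, named after their values were seen, were *Kars* (-1.11 ± 0.19), *Tars* (-1.07 ± 0.24), *Iars* (-0.996 ± 0.336), *Dars* (-0.93 ± 0.17) and *Gars* (-0.75 ± 0.16). The 9 that were not called ranged from -0.82 to 0.26, and 3 of those had positive values. *Iars* kept its call in only 2 of the 6 fits without a library, and its adjusted p was 0.0543 without Ctrl library 1, 0.108 without Ctrl library 3, 0.0638 without Lig library 1 and 0.0827 without Lig library 2. Of the members that sit in the multisynthetase complex, 4 of 7 were lower, and of the synthetases outside it 4 of 10. Over all genes tested 27.2% were lower. With a single library left out, the counts were 3 to 4 and 3 to 5, and the grouping was made after the values were seen. All 5 related genes that the name rule did not reach were lower, against the same 27.2%, but 3 without Ctrl library 2 or Lig library 2. Among them were *Farsa*, the alpha subunit of the phenylalanyl enzyme (-1.87 ± 0.18, edgeR adjusted p = 1.36e-05), and *Eprs*, the fused glutamyl and prolyl enzyme (-1.31 ± 0.16, edgeR adjusted p = 8.03e-05). Of 9 tested mitochondrial synthetases 7 were lower, led by *Sars2* (-2.28 ± 0.37) and *Iars2* (-1.43 ± 0.34), and 4 without Ctrl library 1 or Ctrl library 2.

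Synthetase genes are known targets of ATF4, the transcription factor of the integrated stress response, which binds the amino acid response element with C/EBP partners. The core letters of that element, TGATGNAA, were searched on both strands of RefSeq promoters (GRCm38.p6, 250 bases before to 50 after each start), and 61 of the 84 members matched the promoter table. The letters occurred in 5 of 9 synthetase genes, in 2 of 52 translation factor genes (*Eef2k* and *Eif2s3x*) and in 4.51% of all 27025 genes of the table. The windows of these synthetases are printed because these genes share the letters, with the core in capitals, TTNCATCA where it lies on the opposite strand, and each window read 5′ to 3′ on the strand of its gene. *Aars* held a further match after its start, which is not printed. Of the 5 genes, 4 were called lower, and *Aars* was at -0.18 ± 0.20 (edgeR adjusted p = 0.470).
Gars (chr6:55037950-55037999, + strand): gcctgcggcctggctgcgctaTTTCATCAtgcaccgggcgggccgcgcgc
Tars (chr15:11399659-11399694, - strand): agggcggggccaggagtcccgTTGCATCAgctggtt
Iars (chr13:49682126-49682155, + strand): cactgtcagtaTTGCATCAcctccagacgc
Yars (chr4:129189895-129189924, + strand): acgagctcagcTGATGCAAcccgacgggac
Aars (chr8:111033709-111033758, + strand): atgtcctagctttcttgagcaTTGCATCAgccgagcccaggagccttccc

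Known targets of the integrated stress response outside the module served as the comparison, from a list of 20 genes of which 17 were tested. Of these 10 were higher and 2 lower, or 58.8% and 11.8% against 26.5% and 27.2% of all genes tested, with a median of 0.75. Under scaling on mature neutrophil genes, however, none was higher and 14 were lower. *Chac1*, a glutathione-degrading enzyme, was at 4.2 ± 0.81 CPM (SD, n = 3) in Ctrl and 20.2 ± 4.1 in Lig (log2 2.27 ± 0.28 SE, edgeR adjusted p = 6.87e-05). *Slc7a11*, the cystine transporter, was at 107 ± 8.7 CPM in Ctrl and 359 ± 20 in Lig (1.74 ± 0.11, edgeR adjusted p = 7.03e-07), but gave -0.10 under scaling on mature neutrophil genes. *Atf4* itself was at 146 ± 5.5 CPM in Ctrl and 114 ± 22 in Lig and was not called (-0.36 ± 0.14, edgeR adjusted p = 0.0514).

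The serine and glycine pathway genes of the list went the other way, with *Phgdh* at -2.27 ± 0.29 and *Shmt2* at -1.83 ± 0.21. The element letters occurred in 7 of the 18 list genes with a promoter. Of the 6 of these that were tested, 5 were higher under TMM, namely *Chac1*, *Slc7a11*, *Asns* (1.45 ± 0.42), *Atf3* (1.07 ± 0.10) and *Nupr1* (0.75 ± 0.23), and all but *Chac1* had negative values under scaling on mature neutrophil genes. *Asns* lost its call without Ctrl library 3 or Lig library 2 (adjusted p = 0.0553 and 0.0636), and *Nupr1* without Ctrl library 1, Ctrl library 3 or Lig library 2 (adjusted p = 0.0516, 0.0710 and 0.0610) or with library totals (0.44, adjusted p = 0.125). The windows of 3 of them are printed in the same form as those of the synthetases, so that the shared letters can be compared between the lists. *Slc7a11* held a further match, in lower case near the left end of its window.
Chac1 (chr2:119351028-119351077, + strand): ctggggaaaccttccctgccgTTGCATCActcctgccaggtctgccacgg
Asns (chr6:7693210-7693253, - strand): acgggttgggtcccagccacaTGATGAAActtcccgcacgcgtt
Slc7a11 (chr3:50443632-50443681, - strand): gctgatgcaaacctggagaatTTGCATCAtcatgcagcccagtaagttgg

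Within the synthetase genes, those with and without the letters did not separate: 4 of 5 with them and 2 of 4 without them were lower. A match of letters is a description of the sequence and no evidence of binding. The E-box letters CACGTG, a palindrome, occurred in 27.9% of the matched members and 8.09% of all genes of the table. A pyrimidine tract at the start, a C followed by 4 further C or T, was present in 2 of the 61 matched members, or 3.28%, and in 3.01% of all genes. Only the exact annotated start base was read, so a tract that begins a few bases away was missed. These shares therefore cannot tell how common such tracts are among the members.

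**Figure D4:**
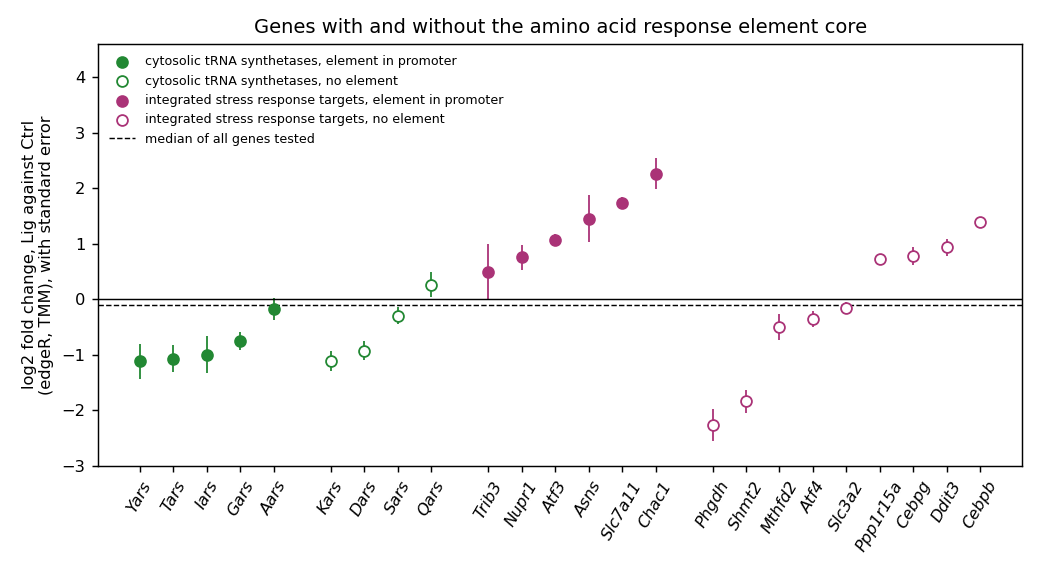
Log2 fold change with standard error (vertical axis, Lig against Ctrl) of tested synthetase genes (green) and integrated stress response targets (purple), with filled points where a promoter holds the core letters of the amino acid response element and open points where none does. With the letters present, the 5 synthetases lie between -1.12 and -0.18 and the 6 stress response targets between 0.50 and 2.27, although under scaling on mature neutrophil genes only *Chac1* of those called higher keeps a positive value.

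Ratios of related factors were compared within each library by a two-sided exact permutation test, which cannot go below p = 0.1 with 3 libraries against 3. Of 11 pairs, 7 had ratios that did not overlap between the groups, each with an exact p of 0.1 and 0.157 after adjustment over the 11 pairs. Non-overlap in any direction was met by 63.4% of all tested genes for their own levels. *Eif4ebp2* to *Eif4ebp1* went from 0.335, 0.275 and 0.274 in Ctrl to 0.0891, 0.0980 and 0.0969 in Lig, a log2 difference of -1.63.

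For 3 pairs of genes of the cap-binding role, the relative stood higher against the canonical gene in every Lig library than in any Ctrl library. The canonical genes *Eif4e* and *Eif4g1* were themselves called lower (-0.65 and -0.51), while none of the relatives was called. The pairs of *Eif4e2* and *Eif4e3* share *Eif4e* as the denominator, so they are not separate observations. The ratio of *Eif4e2* to *Eif4e* was 0.661, 0.675 and 0.794 in Ctrl and 1.24, 0.873 and 1.47 in Lig (log2 difference 0.72). *Eif4e3* to *Eif4e* went from 0.904, 0.696 and 0.843 to 1.25, 1.18 and 1.77 (0.76). This ratio stood below 1 in every Ctrl library and above 1 in every Lig library, but reads of *Eif4e3* can overlap those of *Gm20696*. *Eif4g3* to *Eif4g1* went from 0.616, 0.518 and 0.432 to 0.945, 0.775 and 0.836 (0.72), with no overlap.

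Copies on the sex chromosomes gave the widest shifts after *Eif4ebp2*. *Eif2s3y* to *Eif2s3x* was 2.64, 3.43 and 2.15 in Ctrl and 10.3, 5.25 and 5.45 in Lig (log2 difference 1.31). The autosomal *Eif1a* to the X-linked *Eif1ax* was 1.45, 1.40 and 2.0 in Ctrl and 5.19, 2.83 and 2.71 in Lig (1.10). In both pairs Lig library 1 was the farthest from Ctrl, and neither X-linked partner was called on its own. Outside the module, the X-linked *Ddx3x* went the other way, from 32.4 to 45.2 FPKM over the Ctrl libraries to 54.3 to 60.9 over the Lig libraries, while its Y-linked partner *Ddx3y* overlapped at 9.19 to 18.7 and 12.1 to 13.4 FPKM. *Eif1b* to *Eif1* differed by -0.31 on the log2 scale without overlap, and the pairs of *Eif4g2*, *Eif4a2*, *Eif4a3* and *Eif3j2* overlapped between the groups with exact p of 0.3 to 0.6.

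**Figure D5:**
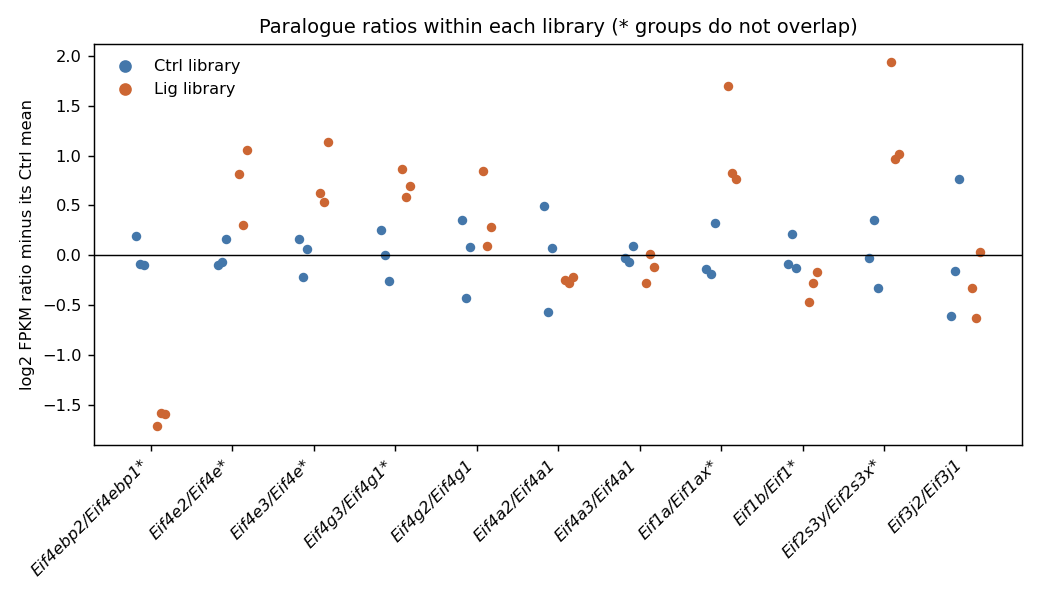
Log2 FPKM ratio of 11 paralogue pairs in each library minus the Ctrl mean of the pair (vertical axis), with Ctrl libraries in blue, Lig libraries in orange and an asterisk for the 7 pairs whose groups did not overlap. *Eif4ebp2*/*Eif4ebp1* shifts by -1.63 and *Eif2s3y*/*Eif2s3x* by 1.31, while *Eif4a3*/*Eif4a1* shifts by -0.13 with overlapping groups.

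Other genes of the pathway moved in both directions. Of 16 tested translation regulators 2 were higher and 5 lower, or 12.5% and 31.25%, against 26.5% and 27.2% of all genes tested. *Mknk1*, the kinase MNK1 that phosphorylates eIF4E, rose from 77 ± 8.8 to 194 ± 19 CPM (log2 1.33 ± 0.13 SE, edgeR adjusted p = 1.25e-05), and *Cyfip1*, an eIF4E-binding repressor and actin regulator, gave 0.95 ± 0.21, but scaling on mature neutrophil genes turned them to -0.51 and -0.90, and totals without haemoglobin genes ended the call of *Cyfip1* (0.42, adjusted p = 0.117). *Gcn1*, the partner of the kinase GCN2, and *Larp1*, which holds mRNAs of ribosomal proteins, were lower at -1.26 ± 0.23 and -1.07 ± 0.12.

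Of 10 tested mTOR pathway genes 2 were higher and 4 lower, against 26.5% and 27.2% of all genes tested, and without Ctrl library 3 or Lig library 2 the 4 dropped to 2. *Sesn2*, a stress-induced inhibitor of mTORC1, rose from 92.3 ± 18 to 244 ± 12 CPM (1.40 ± 0.15, edgeR adjusted p = 2.07e-05), and *Rheb*, the activating GTPase, gave 0.51 ± 0.13, though scaling on mature neutrophil genes turned these to -0.45 and -1.33 and library totals ended the call of *Rheb* (0.19, adjusted p = 0.226). *Sesn1*, a relative of *Sesn2*, fell from 167 ± 24 to 28.4 ± 5.0 CPM (-2.56 ± 0.17, edgeR adjusted p = 1.02e-06). *Akt1s1*, the inhibitor PRAS40, was at -0.98 ± 0.35, with a call lost without Ctrl library 2, Ctrl library 3, Lig library 1 or Lig library 2 (adjusted p = 0.117, 0.0880, 0.0687 and 0.0881). Of the 4 tested termination genes, *Etf1*, the release factor that reads stop codons, was higher at 0.56 ± 0.12, though 0.24 with library totals (adjusted p = 0.117) and -1.28 under scaling on mature neutrophil genes, and the recycling factor *Abce1* and the release factor GTPase *Gspt1* were lower at -1.37 ± 0.32 and -0.86 ± 0.22. Of 6 tested mitochondrial translation factors 33.3% were lower, against 27.2% of all genes tested. These were *Tsfm* and *Mtif2*, at -1.62 ± 0.40 and -0.97 ± 0.32. *Tsfm*, at 3.63 FPKM in Ctrl and 0.95 in Lig, reached a mean of 1 FPKM only through Ctrl. *Mtif2* lost its call without Ctrl library 1, 2 or 3 or Lig library 3 (adjusted p = 0.0517, 0.0627, 0.0737 and 0.0687), and without Lig library 2 the 2 lower factors became 4.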

How the data were processed

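The data were 6 Smart-seq2 libraries of sorted blood neutrophils, 3 from Ctrl and 3 from Lig mice, grouped by their labels. For every gene the authors deposited the raw read count and an FPKM value, in which the count is divided by gene length and sequencing depth. The submitters' processing notes name cutadapt 1.9, FastQC and GRCm38; aligner, counter and strand setting are not given in the sources used here.

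The test was run on counts, for genes reaching a mean of 1 FPKM, with edgeR 4.0.16 in R 4.3.3 (TMM, quasi-likelihood F test, Benjamini-Hochberg adjustment over 10440 genes). The standard error was taken as the size of the log2 fold change over the square root of F. limma 3.58.1 on log2(FPKM + 1) or log2(FPKM + 0.1) and DESeq2 1.42.0 were alternatives. On simulated counts for this comparison (10440 genes, 200 changed) 66.5% of changed genes were recovered, and 7.64% of calls were false. In the data 5601 of the 10440 genes were called in either direction. Whether these rates hold with that many genes called was not tested. The common biological coefficient of variation was 0.265, and the chi-square per gene between libraries of the same group was 52.2 to 126, so none was counted as a copy. That check covers counting error only, as do counts from PCR reads without molecular identifiers, and nothing states that pools were processed on separate days.

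Members, gene lists and motifs were chosen with earlier results of these data known. Named genes were, per role, the 2 highest and 2 lowest called members and the most abundant one, all members of roles with up to 5 tested, both genes of each paralogue pair, the 2 highest and 2 lowest called genes of each pathway list and the 2 most abundant markers. Other genes named were chosen after their values were seen. Symbols on several rows (50) were read from the row with the higher mean FPKM. Of the members 19 overlap another gene at a mean FPKM of 1 or more, 7 of them among the 39 called, which makes them uncertain for reads in the shared stretch. *Eif4e1b*, *Eef1a2* and *Mars* were not analysed here.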

Additional observations from a re-analysis of the deposited data

How the results depend on the processing

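Over all genes, 2766 were higher and 2835 lower with TMM. Totals without haemoglobin genes gave 1460 and 5120, scaling on mature neutrophil genes 52 and 9244, limma on log2(FPKM + 1) 4271 lower, and a mean FPKM of at least 5 left 1768 higher and 1869 lower of 5328 genes. Of the members, 4 were higher and 35 lower. Library totals and limma with pseudocounts of 1 and 0.1 left 1 higher, *Eif4ebp1*, as did totals without haemoglobin genes with 62 lower, and neutrophil scaling gave 0 higher and 75 lower. Median-of-ratios factors gave 6 and 33 members, DESeq2 6 and 36, no filter 4 and 24, and filterByExpr 5 and 28. Without 1 library, 4 to 5 members were higher and 27 to 33 lower, 2419 to 2615 of all genes were higher and 2255 to 2770 lower, and 7 to 8 paralogue ratios stood apart, as did 7 with counts in place of FPKM. With a replicate block, 5 members were higher and 37 lower, and 3 of the 5 related synthetase genes outside the name rule were lower, as with filterByExpr; the correlations of deviations between libraries with the same number were -0.0112, 0.0437 and 0.0218, so the numbers did not pair them.

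Log2 values that changed sign with a call, and so depend on the scale, were as follows. With totals without haemoglobin genes they were *Eif1* -0.15, *Eif2ak1* -0.44, *Eif4e2* -0.46, *Eif4ebp2* -0.38, *Eif4h* -0.28, *Gzma* -0.33 and *Rheb* -0.0165. With neutrophil scaling the members were *Eef2k* -1.03, *Eif1* -1.45, *Eif1a* -1.44, *Eif1b* -1.76, *Eif2ak1* -1.76, *Eif2s3y* -1.25, *Eif4e2* -1.76, *Eif4e3* -1.73, *Eif4ebp1* -0.0481, *Eif4ebp2* -1.69, *Eif4g3* -1.66 and *Eif4h* -1.59. The other genes were *Asns* -0.36, *Atf3* -0.76, *Cd68* -0.70, *Cebpb* -0.44, *Cyfip1* -0.90, *Etf1* -1.28, *Gzma* -1.63, *Ly6c2* -1.04, *Mknk1* -0.51, *Nupr1* -1.08, *Pf4* -0.62, *Ppbp* -0.59, *Rheb* -1.33, *Sesn2* -0.45 and *Slc7a11* -0.10. The scaling itself sets these shifts, since it lowers every gene by the rise of its reference genes. The 5 tested members under 10 CPM in both groups had standard errors of 0.42 or more.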
